A study of Mus musculus with 20 samples.

Results

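Expression of 10 genes that encode scaffold proteins of the postsynaptic density was examined in RNA-seq counts from the striatum of 20 male mice. The genes were *Dlg1*, *Dlg2*, *Dlg3*, *Dlg4*, *Dlgap1*, *Shank1*, *Shank2*, *Shank3*, *Homer1* and *Homer2*, chosen by symbol, and each symbol matched 1 Ensembl gene among the 39179 listed. All 10 passed the expression threshold (above 1 CPM, the reads of a gene scaled to library size, in 3 or more mice), as did 14792 genes in total. High-Active mice came from a line bred for distance traveled in the home cage, and Control mice came from an unselected line with the same founders, an intercross of inbred strains. Mice of generation 17, about 6.5 months old, received 1 intraperitoneal injection of saline or of 0.25 mg/kg amphetamine, and the tissue was collected 2 hours later. Each combination of line and treatment was a group of 5 mice (4 groups). There was 1 line of each kind, so that selection and drift cannot be told apart. By the sire and dam in the labels, the 10 Control mice fell into 8 families and the 10 High-Active mice into 5, where a family is a pair of parents and not necessarily a litter. The methods of the study instead describe every mouse as coming from a separate family, and the labels were followed here.

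The postsynaptic density is a sheet of protein under the membrane of the excitatory synapse, and in the striatum it lies mostly in the spines of medium spiny neurons, where glutamate input from the cortex meets dopamine input from the midbrain. It is built in layers. Membrane-associated guanylate kinases encoded by the *Dlg* genes hold glutamate receptors and adhesion molecules, *Dlgap1* protein links them to Shank proteins, and Shank proteins bind Homer proteins, which reach metabotropic glutamate receptors, internal calcium stores and the actin cytoskeleton. A short form of Homer1 that is induced by activity lacks the part that joins Homer proteins to each other. Counts per gene sum all transcripts of a gene, so the short and long forms of *Homer1* could not be separated here.

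The positions of the genes are those of GRCm38. *Dlg1* lies on chromosome 16 (31663443 to 31875129), *Dlg2* on chromosome 7 (90476672 to 92449247), *Dlg3* on chromosome X (100767722 to 100818410) and *Dlg4* on chromosome 11 (70016942 to 70047522). *Dlgap1* lies on chromosome 17 (69969073 to 70821413). *Shank1* and *Shank2* are both on chromosome 7 (44310253 to 44360572 and 144001928 to 144424494), and *Shank3* is on chromosome 15 (89499623 to 89560261). *Homer1* lies on chromosome 13 (93299635 to 93405129) and *Homer2* on chromosome 7 (81600481 to 81707527). All are annotated as protein-coding. Exons of *Shank1* and *Shank3* overlap exons of an antisense gene over 339 and 271 bases. The libraries were stranded, but the strand setting of the counting is not given in the sources used here, so reads in these stretches are uncertain.

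Promoter windows of RefSeq (GRCm38.p6, from 250 bases before to 50 bases after a start of transcription) were matched by symbol for 8 of the 10 genes (not *Shank1* and *Shank2*), 19 windows in all. Of the windows, 1 of *Dlg3* and 1 of *Homer1* are shown. *Dlg3* is shown because it was the only member that passed the threshold between the lines, and *Homer1* because it is the member known for induction by activity and varied most between mice. Each has 2 windows, and the one that holds the motif below is shown, since the other has no match. Both are on the plus strand and are printed in 5′ to 3′ direction, with each match to TGACG, on either strand, in capitals. This is the core of the cAMP response element, the sequence bound by the factor CREB.
Dlg3, chrX:100774245-100774544: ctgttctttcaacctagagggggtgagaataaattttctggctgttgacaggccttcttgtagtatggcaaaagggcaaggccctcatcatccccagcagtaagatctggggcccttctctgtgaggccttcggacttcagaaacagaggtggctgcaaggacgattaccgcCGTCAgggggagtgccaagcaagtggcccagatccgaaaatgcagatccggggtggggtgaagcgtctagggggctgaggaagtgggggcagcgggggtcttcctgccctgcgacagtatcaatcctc
Homer1, chr13:93303507-93303806: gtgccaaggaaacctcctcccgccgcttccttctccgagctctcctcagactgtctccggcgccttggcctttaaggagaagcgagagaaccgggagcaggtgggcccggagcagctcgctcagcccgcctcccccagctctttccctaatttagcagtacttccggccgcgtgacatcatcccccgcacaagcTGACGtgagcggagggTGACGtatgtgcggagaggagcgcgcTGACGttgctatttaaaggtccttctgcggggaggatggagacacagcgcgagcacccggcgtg
The *Homer1* window held 3 matches, which began 56, 40 and 14 bases before the start, and the *Dlg3* window held 1, on the minus strand, which began 78 bases before it. *Dlg4* also had 1 match in 1 of its windows. TGACG was thus present in 3 of the 19 windows of these genes and in 20.8% of all 32851 windows in the table. The full element TGACGTCA, which contains TGACG, was in none of the 19 and in 1.79% of all windows. The GC box GGGCGG was in 6 of the 19 and in 35.7% of all windows, and the E-box CACGTG was in 3 of the 19 and in 7.15% of all windows. A match describes these letters and is not evidence of binding.

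Levels of different genes were compared as CPM per kb of annotated exon. Over all 20 mice *Dlg4*, which encodes PSD-95, the most abundant scaffold of the density, was highest at 64.1 ± 5.24 (SD, n = 20). *Shank3*, at 37.3 ± 4.24, and *Dlg3*, which encodes SAP102, at 36.5 ± 3.08, followed. *Dlg4* was above *Shank3* in 20 of 20 mice, but *Shank3* was above *Dlg3* in only 10 of 20, so these neighbors were not ordered. *Dlg1* (24.8 ± 2.44), *Homer1* (24.3 ± 5.96), *Dlg2* (20.9 ± 2.43) and *Shank1* (20.8 ± 3.91) formed the middle of the order. *Dlg1* was above *Homer1* in 11 mice, *Homer1* above *Dlg2* in 17 and *Dlg2* above *Shank1* in 12. *Shank2* (13.3 ± 1.59) and *Dlgap1* (12.99 ± 2.39) were lower and also overlapped. *Homer2* was lowest, at 2.00 ± 0.296, and *Dlgap1* was 6.48 times as high. Exon length joins the exons of all transcripts, so a gene with many alternative exons appears lower on this scale. Lengths came from GENCODE M21, whereas the study counted reads on an Ensembl annotation. The exons behind the counts and the lengths can therefore differ.

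**Figure D1:**
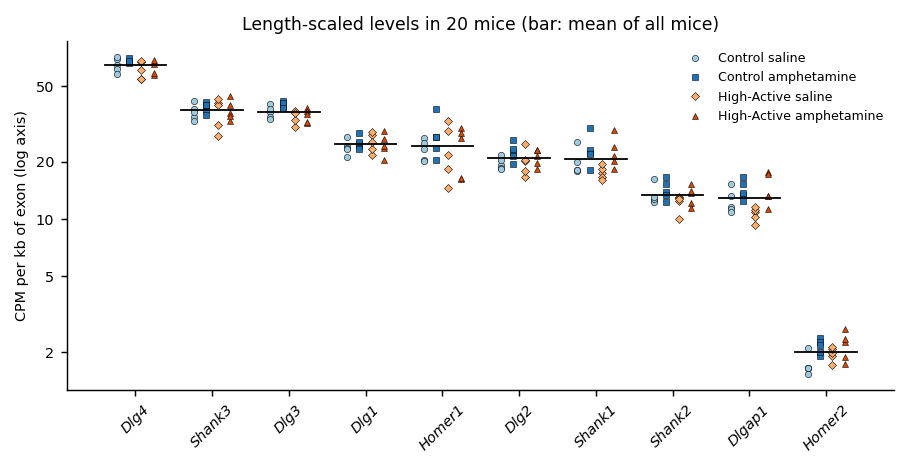
Level of each scaffold gene in CPM per kb of exon (log axis) in 20 mice, with 1 point per mouse, shape and color by group, and a bar at the mean of all mice. *Dlg4* is highest at 64.1 on average and *Homer2* lowest at 2.00, and the groups lie close together for every gene on this axis.

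The counts behind these levels were high. The lowest count of any member in any mouse was 701 reads, on *Homer2*, and *Dlg4* had 24349 to 44708 reads per mouse, so counting error was small beside the spread between mice. Depth ranged from 32388971 to 53710713 counted reads. The spread within groups, pooled over the 4 groups on the log2 CPM scale, was 0.154 for the median gene. *Dlg3* (0.101) and *Dlg4* (0.115) varied less than this, and *Homer1*, at 0.377, varied most among the members. *Shank1* (0.218) and *Dlgap1* (0.201) followed *Homer1*.

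Members moved up or down in part by mouse. In Control amphetamine mice, mouse 407 had the highest log2 CPM of its group for 10 of 10 members, where it was highest for 25.6% of all genes. In the same group mouse 457 was lowest for 7 of 10, against 23.2% of all genes. Mouse 197 was lowest of High-Active saline mice for 6 members (23.7% of all genes), and mouse 415 lowest of High-Active amphetamine mice for 7 (23.9%). The members of 1 mouse share a library, so these counts describe mice and not independent genes.

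Tissue markers also varied between mice. All 10 markers of medium spiny neurons, such as *Ppp1r1b* and *Drd1*, were present, with a summed level of 4471 to 7379 CPM per mouse. The 10 markers of cortical excitatory neurons summed to 298 to 832 CPM in Control saline, 609 to 835 in Control amphetamine, 163 to 342 in High-Active saline and 219 to 972 in High-Active amphetamine mice, and none was at 0. A cortex score, the mean of their log2 CPM after centering each gene over the 20 mice, averaged 0.10 ± 0.65, 0.57 ± 0.18, -0.88 ± 0.45 and 0.21 ± 0.78 in these groups (SD, n = 5). In edgeR's quasi-likelihood test 3 of these 10 markers (*Slc17a7*, *Tbr1*, *Neurod2*) were lower in High-Active mice past the threshold. At an unadjusted p under 0.05 in this test 7 were lower. Between the lines DESeq2 called 5 lower and the likelihood-ratio test with robust dispersions 7. Shares over all genes for these added line counts are not given here. With amphetamine 9 of the 10 were higher at an unadjusted p under 0.05 in the quasi-likelihood test, against 7.06% of all genes. None passed after adjustment in the quasi-likelihood test. DESeq2 called 5 of 10 higher and the likelihood-ratio test with robust dispersions 6 of 10, against 2% and 2.35% of all genes. The 8 oligodendrocyte markers summed to 3884 to 6547 CPM in Control saline, 4449 to 6391 in Control amphetamine, 5398 to 7048 in High-Active saline and 5691 to 7187 in High-Active amphetamine mice, and 2 of them were higher in High-Active mice past the threshold of the quasi-likelihood test. DESeq2 called 3 oligodendrocyte markers higher and the likelihood-ratio test 4. In the quasi-likelihood test 2 of 6 astrocyte markers were higher and 1 was lower in High-Active mice, and 1 of 5 microglia markers was lower. This test called 7.63% of all genes higher and 6.9% lower in High-Active mice. It called none of the 10 medium spiny neuron, 4 endothelial and 4 choroid plexus markers between the lines (3, 0 and 0 had an unadjusted p under 0.05), and no marker of any list for amphetamine. DESeq2 called 2 medium spiny neuron markers lower in High-Active mice (*Rgs9* and *Bcl11b*), and the likelihood-ratio test called 3 (also *Pde10a*). For amphetamine, outside the cortex markers, DESeq2 called 1 astrocyte marker higher (*Slc1a2*) and the likelihood-ratio test 1 choroid plexus marker lower (*Ttr*). The 4 choroid plexus markers ranged from 4.64 to 855 CPM in sum and were highest in mice 871, 487, 469 and 197. In bulk tissue fewer cells of a type and less RNA per cell cannot be told apart.

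The comparison of the lines asked which genes differ after selection for activity. *Dlg3*, a scaffold that carries NMDA receptors to the synapse, was lower in High-Active mice, and the other 9 members did not pass the threshold. In Control saline mice *Dlg3* was at 236, 213, 201, 196 and 220 CPM, and in Control amphetamine mice at 225, 243, 235, 237 and 225 CPM. In High-Active saline mice it was at 179, 213, 217, 193 and 212 CPM, and in High-Active amphetamine mice at 223, 188, 190, 217 and 208 CPM. All 10 High-Active mice were below the median of the Control mice, and 4 were below every Control mouse. These 4 were mice 197, 871, 487 and 415. Their medium spiny neuron scores, computed as the cortex score was, were -0.44, -0.29, -0.20 and -0.31. Mouse 872, at 217 CPM after amphetamine, had a score of -0.23. The part of this score in the *Dlg3* difference was not tested. After amphetamine the lines did not overlap, whereas after saline they did.

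The mean of *Dlg3* was 223 ± 15.7 CPM in Control and 204 ± 15.3 in High-Active mice (SD, n = 10). The log2 fold change was -0.13 (SE 0.045, 8.48% lower) with an adjusted p of 0.081 in edgeR's quasi-likelihood test with Benjamini-Hochberg adjustment over 14792 genes. So 1 of 10 members was called at the FDR threshold of 0.1, against 14.5% of all genes in either direction and 6.9% in the downward direction. A permutation test over mice, with no adjustment for the 10 members tested, gave a difference of -0.13 log2 CPM (two-sided p = 0.0157). The difference was -0.19 among amphetamine mice (exact permutation test, p = 0.00794, the smallest that 5 against 5 mice allow) and -0.073 among saline mice (exact permutation test, p = 0.317). Groups of 5 that do not overlap after amphetamine were found for 2.94% of all genes. The line by amphetamine interaction of *Dlg3* was -0.11 (SE 0.089, adjusted p = 1.00), so the difference between treatments was not established.

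The *Dlg3* call was close to the threshold. It was lost when any of 10 mice was left out (adjusted p from 0.102 to 0.149 without mouse 197, 407, 409, 411, 415, 448, 454, 487, 871 or 883) and held without any of the other 10 (0.0528 to 0.0907). With the cortex score and a score of 8 oligodendrocyte markers as covariates the log2 fold change was -0.050 (SE 0.044, adjusted p = 0.661). Within groups the slope of *Dlg3* on the cortex score was 0.093 log2 units per unit of score (SE 0.040, adjusted p = 0.247). The score and the line overlap, and the part of cortical RNA in the difference was not tested. Without the 4 mice of highest choroid plexus score the log2 fold change was -0.086 (adjusted p = 0.292, 16 mice), so the call was also lost. With the counts of mice of the same parents added together (13 families) it was -0.10 (SE 0.050, adjusted p = 0.289), and the call was lost as well. That fit had no term for treatment, and families differed in their number of mice and in the treatments they held. The part of shared parents in the loss was not tested. The permutation tests take mice of the same parents as independent.

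**Figure D2:**
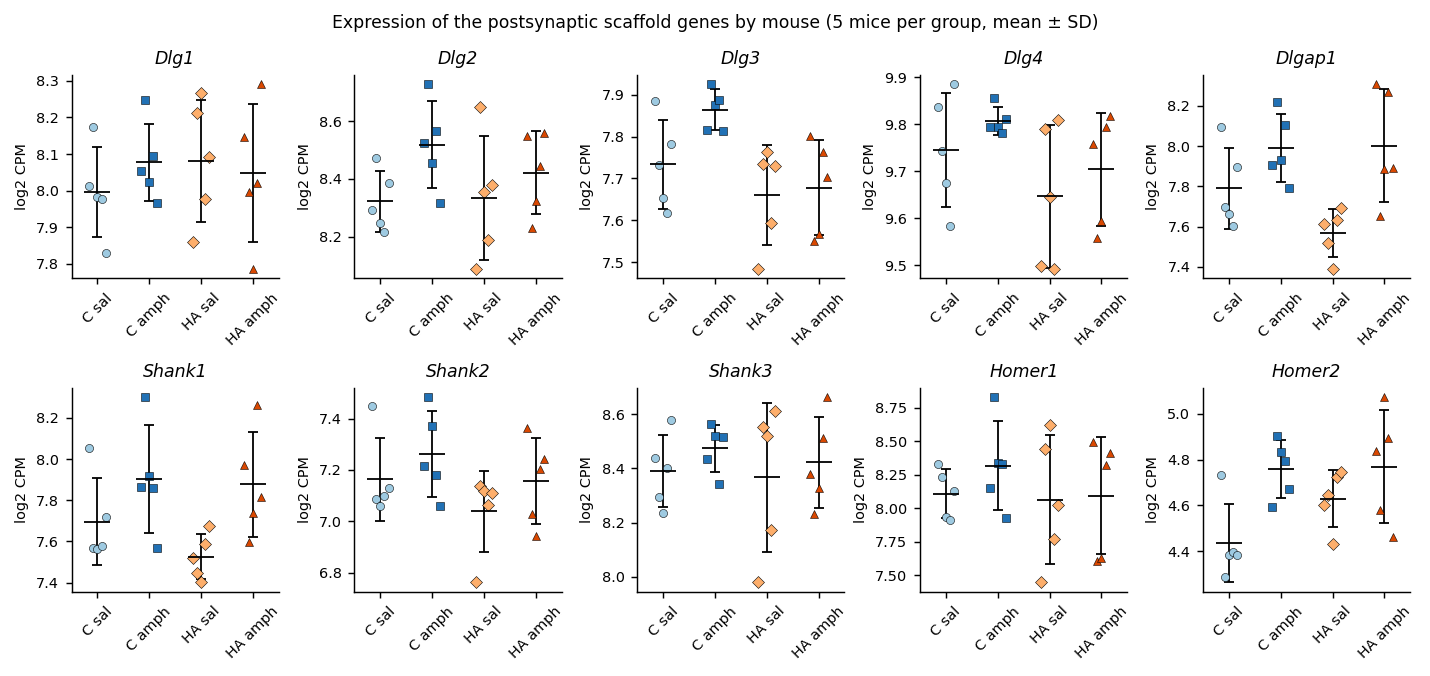
Log2 CPM of each scaffold gene by group (C, Control; HA, High-Active; sal, saline; amph, amphetamine), with 1 point per mouse and the mean ± SD of 5 mice. The y axes differ between panels and do not start at 0. *Dlg3* is lower in all 5 High-Active amphetamine mice than in the 5 Control amphetamine mice, and *Homer1* has the widest spread.

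Among the other membrane-associated guanylate kinases, *Dlg4* was at 720 to 903 CPM in High-Active mice and at 768 to 946 in Control mice, a log2 fold change of -0.097 (SE 0.051, adjusted p = 0.232). *Dlg2*, which encodes PSD-93, had a line difference of -0.039 (SE 0.068, adjusted p = 0.756). *Dlg1*, which encodes SAP97, a form also found outside synapses, had a difference of 0.033 (SE 0.064, adjusted p = 0.780). With these SEs, each larger than that of *Dlg3*, differences of the size seen for *Dlg3* or somewhat larger could have gone uncalled in these genes.

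Of the linkers, *Dlgap1* had a log2 fold change of -0.10 between the lines (SE 0.085, adjusted p = 0.474). Its difference was -0.22 log2 CPM in saline mice (exact permutation test, p = 0.0714) and 0.010 in amphetamine mice (exact permutation test, p = 0.937). *Shank1* had -0.10 (SE 0.092, adjusted p = 0.507), *Shank2* -0.12 (SE 0.069, adjusted p = 0.302) and *Shank3* -0.027 (SE 0.076, adjusted p = 0.851). *Homer1* had -0.098 (SE 0.15, adjusted p = 0.728). *Homer2* had 0.11 (SE 0.075, adjusted p = 0.387), the most positive of the members. In all, 8 of 10 point estimates were negative, where 50.3% of all genes were. Their median was -0.098, where the median of all genes was -0.00093. The members share libraries, so these signs are not independent. With both marker scores as covariates 7 of 10 estimates were positive, where 51.1% of all genes were, and the median was 0.040. The direction of *Dlgap1*, *Shank1*, *Shank3*, *Homer1* and *Dlg2* thus turned with the covariates, and none of these estimates was called in either fit.

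The treatment comparison asked whether amphetamine changed expression 2 hours after injection. No member passed in edgeR's quasi-likelihood test, nor did any of the 14792 genes (0% called). The point estimates of all 10 members were positive, where 47% of all genes were. These signs come from the same libraries and are not independent. Of 61 other postsynaptic genes, described below, 49 had a positive estimate. At an unadjusted p under 0.05 in this test, 3 of the 10 members were higher, against 7.06% of all genes. Those members were *Dlgap1*, *Shank1* and *Homer2*. With DESeq2, which called 2% of all genes higher, and with edgeR's likelihood-ratio test and robust dispersions, which called 2.35% higher, the same 3 members passed. These are also the tests that called 5 and 6 of the 10 cortex markers higher after amphetamine.

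*Dlgap1*, the linker between Dlg and Shank proteins, was at 273, 208, 203, 194 and 238 CPM in Control saline mice. In Control amphetamine mice it was at 240, 298, 244, 275 and 222 CPM. All 5 of these were above the saline median, but mouse 411, at 273 CPM, was the highest of the saline mice and exceeded 3 of them. In High-Active mice *Dlgap1* was at 196, 183, 168, 199 and 207 CPM after saline. After amphetamine it was at 317, 201, 237, 308 and 237 CPM. Of these, 4 of 5 were above every High-Active saline mouse. Over both lines the mean was 207 ± 29.4 CPM after saline and 258 ± 39.3 after amphetamine (SD, n = 10). The log2 fold change was 0.32 (SE 0.085, adjusted p = 0.197 in edgeR's quasi-likelihood test), or 25.1% higher. DESeq2 gave an adjusted p of 0.0273 and the likelihood-ratio test 0.00362.

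*Shank1*, a master scaffold of the spine, was at 266, 190, 189, 191 and 211 CPM in Control saline and at 233, 315, 242, 232 and 190 CPM in Control amphetamine mice. In High-Active mice it was at 183, 175, 169, 192 and 204 CPM after saline and at 251, 194, 213, 308 and 225 CPM after amphetamine. Mouse 411 was again the highest Control saline mouse, and 4 of 5 High-Active amphetamine mice were above every High-Active saline mouse. The log2 fold change for amphetamine was 0.29 (SE 0.092, adjusted p = 0.222 in edgeR's quasi-likelihood test), and the adjusted p was 0.0825 with DESeq2 and 0.0218 with the likelihood-ratio test.

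*Homer2*, whose long protein joins Shank to metabotropic glutamate receptors, was at 26.5, 19.5, 20.8, 21.0 and 20.8 CPM in Control saline and at 24.1, 29.9, 28.4, 27.7 and 25.5 CPM in Control amphetamine mice. In High-Active mice it was at 24.2, 25.0, 21.5, 26.4 and 26.8 CPM after saline and at 28.6, 23.9, 33.6, 29.7 and 22.0 CPM after amphetamine. In the Control line only mouse 411 bridged the treatments, and in the High-Active line 3 of 5 amphetamine mice were above all saline mice. The log2 fold change was 0.24 (SE 0.075, adjusted p = 0.222 in edgeR's quasi-likelihood test), with adjusted p values of 0.0932 from DESeq2 and 0.0779 from the likelihood-ratio test.

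*Homer1*, known for its induction by neuronal activity, was at 321, 301, 244, 241 and 280 CPM in Control saline mice and at 284, 455, 323, 323 and 244 CPM in Control amphetamine mice. In High-Active mice it was at 174, 348, 395, 218 and 261 CPM after saline and at 360, 195, 198, 320 and 340 CPM after amphetamine. The treatments overlapped in both lines. The log2 fold change was 0.12 (SE 0.15, adjusted p = 0.791), an error wide enough to leave a moderate change of either sign undetected. In High-Active mice the 2 lowest saline values belonged to mice 197 and 871, both among the 4 mice of highest choroid plexus score, and mouse 487, also among them, was at 198 CPM after amphetamine. The lowest High-Active amphetamine value, 195 CPM, belonged to mouse 415, which was not among them. Medium spiny neuron scores were -0.44, -0.29, -0.20 and -0.31 in mice 197, 871, 487 and 415. Mouse 872, at 320 CPM after amphetamine, had a score of -0.23. The part of these scores in the *Homer1* values was not tested.

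The remaining members had smaller estimates for amphetamine. *Dlg2* had 0.14 (SE 0.068, adjusted p = 0.407) and *Shank2* had 0.11 (SE 0.069, adjusted p = 0.541). *Dlg3* had 0.072 (SE 0.045, adjusted p = 0.527), *Shank3* 0.063 (SE 0.076, adjusted p = 0.784), *Dlg4* 0.057 (SE 0.051, adjusted p = 0.698) and *Dlg1* 0.025 (SE 0.064, adjusted p = 0.906). None of these passed in any of the 3 tests.

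**Figure D3:**
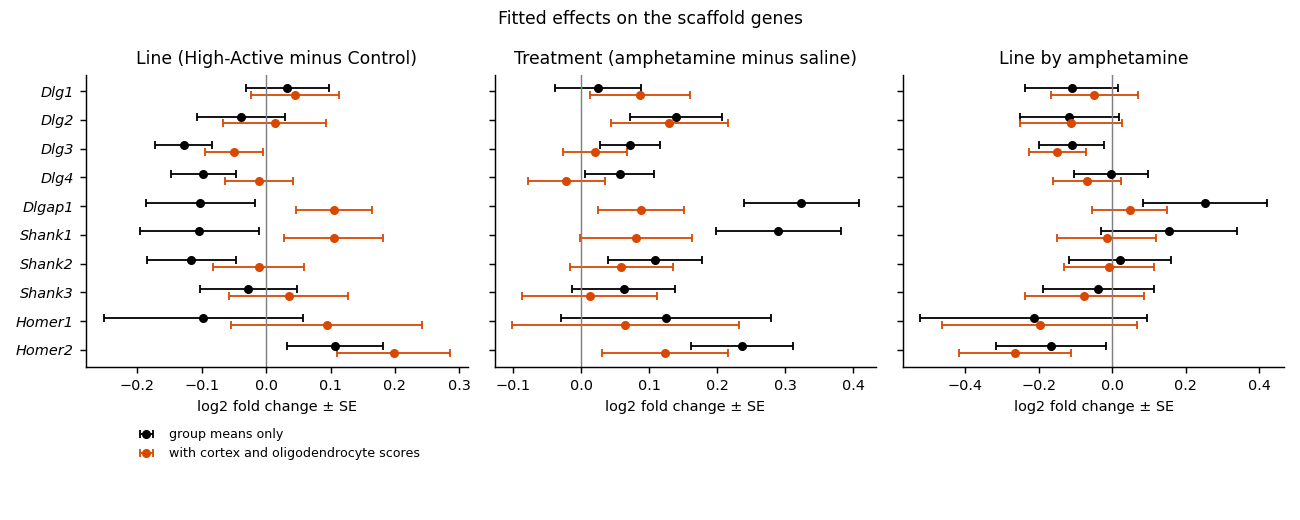
Log2 fold change ± SE of each scaffold gene for line, amphetamine and their interaction, from edgeR's quasi-likelihood fit with the 4 group means (black) and with cortex and oligodendrocyte marker scores added (orange). The amphetamine estimates of *Dlgap1* and *Shank1* lie at 0.32 and 0.29 without the scores and at 0.088 and 0.081 with them. The x axes differ between panels.

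The cortex score moved with these estimates. With the cortex and oligodendrocyte scores in the model the amphetamine log2 fold change of *Dlgap1* was 0.088 (SE 0.063, adjusted p = 0.905), that of *Shank1* 0.081 (SE 0.082, adjusted p = 0.918) and that of *Homer2* 0.12 (SE 0.093, adjusted p = 0.905). Of the 10 members 9 kept a positive estimate, where 48% of all genes had one, and the median went from 0.12 to 0.073. In a model with group means and the cortex score, 2 of 10 members had a slope past the threshold, against 4.06% of all genes with a positive slope called. *Dlgap1* rose by 0.31 log2 units per unit of score (SE 0.047, adjusted p = 0.000656) and *Shank1* by 0.29 (SE 0.063, adjusted p = 0.0129). *Homer2* had a slope of 0.14 (SE 0.069, adjusted p = 0.333) and *Dlg1* a slope of -0.026 (SE 0.065, adjusted p = 0.907). These slopes rest on mice within groups. The part of cortical RNA in the amphetamine estimates was not tested.

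**Figure D4:**
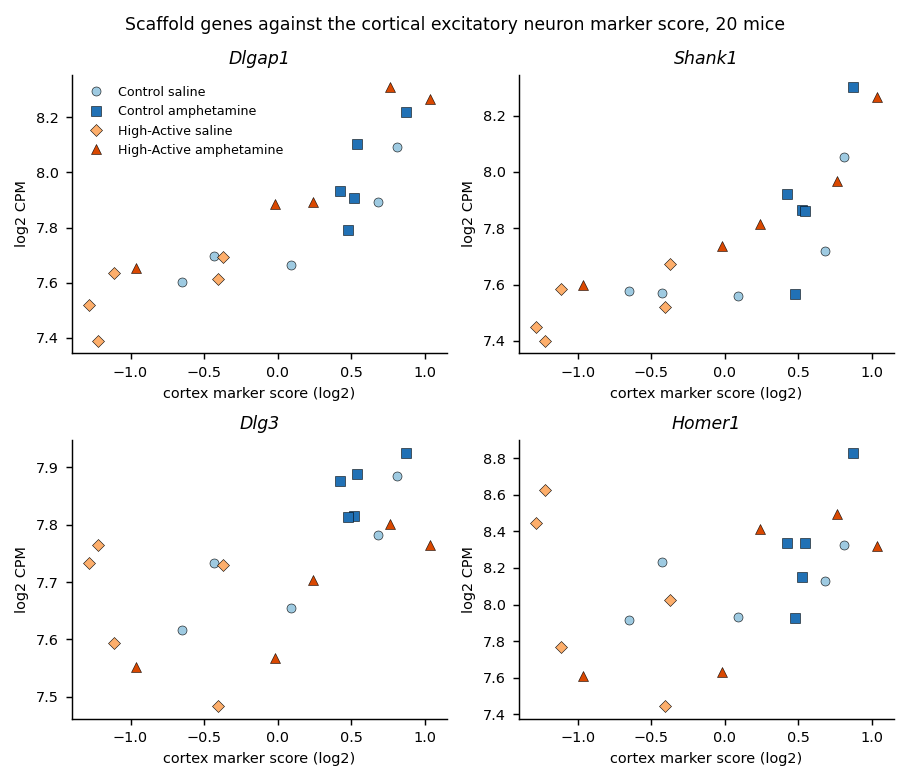
Log2 CPM of 4 scaffold genes against the cortex marker score (mean centered log2 CPM of 10 marker genes), with 1 point per mouse and shape and color by group. *Dlgap1* and *Shank1* climb with the score across and within groups, with fitted slopes of 0.31 and 0.29 per unit, while *Homer1* scatters widely at every score.

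Mice of the same parents gave a comparison of treatments within families. In 6 families (2 Control, 4 High-Active) there were mice of both treatments. *Dlgap1* was higher after amphetamine in 4 of 6 families, with a mean difference of 0.29 ± 0.34 log2 CPM (SD, n = 6), and *Shank1* in 4 of 6, with 0.31 ± 0.38. *Homer2* was also higher in 4 of 6 (0.19 ± 0.32). *Dlg3* was higher in 3 of 6 (0.024 ± 0.17), and *Homer1* ranged from -0.81 to 0.96 between families. With family as a fixed term in the model the amphetamine log2 fold change was 0.32 for *Dlgap1* (SE 0.12, adjusted p = 0.775) and 0.34 for *Shank1* (SE 0.13, adjusted p = 0.775), over 13 mice. The family difference of *Dlgap1* had the same sign as that of the cortex score in 6 of 6 families, and so had that of *Shank1*. The signs were the same in 5 of 6 families for *Dlg3*, *Dlg4* and *Shank2*. They were the same in 4 of 6 for *Dlg2*, *Homer1*, *Homer2* and *Shank3*, and in 3 of 6 for *Dlg1*. Both differences come from the same libraries, and the share over all genes was not computed.

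**Figure D5:**
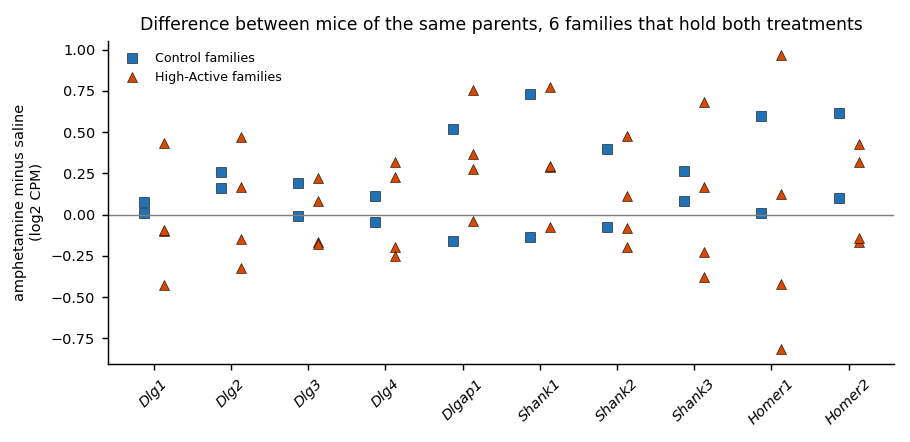
Difference in log2 CPM between amphetamine and saline mice of the same parents for each scaffold gene, with 1 point per family (2 Control, 4 High-Active). Points lie on both sides of 0 for every gene, and *Homer1* has the widest range, from -0.81 to 0.96.

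The interaction asked whether the lines responded differently to the drug. No member passed (0% of all genes called), and the estimates ran from -0.21 for *Homer1* (SE 0.31) to 0.25 for *Dlgap1* (SE 0.17), each with an adjusted p of 1.00 in edgeR's quasi-likelihood test. No member had an unadjusted interaction p under 0.05, against 2.97% of all genes. The response of *Dlgap1* was 0.20 (SE 0.12) in Control and 0.45 (SE 0.12) in High-Active mice. That of *Homer2* was 0.32 (SE 0.11) in Control and 0.15 (SE 0.11) in High-Active mice. The SEs of the interactions were 0.089 to 0.31, and a call would need a difference of several times its SE.

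Other postsynaptic genes were taken as 4 chosen lists with 61 genes, all of which passed the threshold on counts. The lists are not complete, and not all of their proteins belong to the density of excitatory synapses. They were chosen with earlier results of these data known, so their counts beside those of all genes are a description only. Between the lines 1 was higher and 12 were lower in High-Active mice at an FDR under 0.1, against 7.63% and 6.9% of all genes. The median log2 fold change of the 61 was -0.072. Among 16 receptors and membrane partners 5 were lower and none higher, among 22 scaffolds and adaptors 4 were lower and 1 higher, among 12 actin and motor links 2 were lower, and among 11 enzymes and regulators 1 was lower.

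*Grin2b*, an NMDA receptor subunit carried by Dlg proteins, fell by 0.32 on the log2 scale (SE 0.085, adjusted p = 0.0282), from 347 ± 54.1 CPM in Control to 277 ± 37.5 in High-Active mice (SD, n = 10). All 10 High-Active mice were below the Control median. *Camk2b*, a subunit of the calcium-dependent kinase of the density, fell by 0.19 (SE 0.052, adjusted p = 0.0305), and 6 High-Active mice were below all Control mice. Among the adaptors, *Lin7b* had a log2 fold change of -0.29, *Cnksr2* of -0.25 and *Mpp2* of -0.20, with adjusted p values of 0.0329, 0.0713 and 0.0480. *Begain*, which binds Dlg4 protein, was the gene that rose (0.16, SE 0.049, adjusted p = 0.0557). *Nlgn2*, an adhesion molecule of inhibitory synapses, was -0.10 (adjusted p = 0.0340), and 7 of 10 High-Active mice were below all Control mice. *Cyfip2* (-0.19) and *Abi1* (-0.14), members of the complex that drives actin branching, and *Adam22* (-0.098), a partner of Dlg proteins, also fell. The remaining 3 were *Lin7c*, *Gria3* and *Grin1*, with log2 fold changes of -0.082, -0.15 and -0.13 and adjusted p values of 0.0753 to 0.0916.

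None of the 61 was called between the lines once the cortex and oligodendrocyte scores entered the model, where 2.66% of all genes were called. For amphetamine none of the 61 passed in edgeR's quasi-likelihood test, and 11 had an unadjusted p under 0.05, all of them higher, against 7.06% of all genes in this direction. DESeq2 called 3 of the 61 higher (*Apba1*, *Frmpd4*, *Grin2a*), against 2% of all genes. The likelihood-ratio test called 4 (also *Kalrn*), against 2.35% of all genes. The smallest p belonged to *Apba1*, an adaptor also found in presynaptic terminals (0.15, SE 0.046, adjusted p = 0.215), and *Kalrn*, an exchange factor of the spine, had 0.28 (SE 0.096, adjusted p = 0.244). *Kalrn*, *Camk2a*, *Iqsec2*, *Lin7b* and *Dynll1* had a slope on the cortex score past the threshold, from 0.17 to 0.30 per unit. These are 5 of the 61, against 4.06% of all genes with a positive slope called. For the interaction none passed, and 1 of the 61 had an unadjusted p under 0.05, against 2.97% of all genes.

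The 2 genes most like *Dlg3* over the 20 mice, after group means were removed, were *Tmem198* (Pearson r = 0.941) and *R3hdm1* (r = 0.939). Their line differences were -0.11 and -0.12 on the log2 scale, with adjusted p values of 0.417 and 0.443, so neither was called. Each point is a mouse, and the values of the paired genes within a point come from 1 library. The r values are given as a description.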

How the data were processed

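RNA from the dissected striatum of 20 mice was sequenced as stranded paired-end libraries. The authors aligned the reads with TopHat2 2.0.10 to GRCm38 and counted reads per Ensembl gene using htseq-count (HTSeq 0.6.1), and the deposited values were whole-number counts per gene and mouse, not normalized. Rows that name no gene held 15.97 to 17.49% of the reads and were left out. Genes with more than 1 CPM in at least 3 mice were kept, library sizes were recomputed, TMM normalization was applied and edgeR's quasi-likelihood test was fitted with a mean for each of 4 groups. Line, amphetamine and interaction effects were contrasts of this fit, with p values adjusted by Benjamini-Hochberg over 14792 genes and a threshold of 0.1. Values per mouse are TMM-scaled CPM, or log2 CPM with a prior count of 2. Permutation tests used 100000 resamples for 10 against 10 mice and all regroupings for 5 against 5, two-sided. Group, sire and dam were taken from the labels, and mouse numbers are those of the labels. Nothing in the labels names a batch. No 2 files held identical values.

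The scaffold genes, the 4 lists of other postsynaptic genes and the markers were chosen with earlier results of these data known. All scaffold genes were named, and of the other genes up to 10 per effect by smallest p. The 3 called genes beyond these were named after their values were seen. Exon lengths came from GENCODE M21, promoter windows from RefSeq. The scripts were tested on simulated data. Alternatives were RLE normalization, other filters, DESeq2, a likelihood-ratio test, limma-voom with family as a random block, family sums, family as a fixed term, marker scores as covariates, and each mouse left out in turn. The cortex score alone, its slope and the fit without 4 mice were chosen after seeing the data. Tools were R 4.3.3 with edgeR 4.0.16, limma 3.58.1 and DESeq2 1.42.0, and Python 3.11.15 with scipy 1.17.1, pandas 2.3.3 and matplotlib 3.10.9.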

Additional observations from a re-analysis of the deposited data

Results flagged for a closer look

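The spread of each member was examined in each group of 5 mice, 40 groups in all, for a mouse separated from the others by a gap of more than 0.71 of the range of its group (Dixon's test). Chance alone flags about 1 in 20 such groups, and 3 were flagged. *Shank2* was at 7.45 log2 CPM (175 CPM) in Control saline mouse 411, against 7.06 to 7.13 in the other 4 mice of that group. *Homer2* was at 4.73 log2 CPM (26.5 CPM) in the same mouse, against 4.29 to 4.39 in the others. Mouse 411 had the highest cortex score of the Control saline mice, 0.81, and the lowest choroid plexus score of that group, -2.29. *Shank2* was at 6.76 log2 CPM (108 CPM) in High-Active saline mouse 197, against 7.06 to 7.14 in the others, and this mouse had a choroid plexus score of 2.18 and a medium spiny neuron score of -0.44, the lowest of the 20 mice. The part of these markers in the flagged values was not tested.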

How the results depend on the processing

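The count of members called between the lines, 1 (*Dlg3*), became 0 without a low count filter, with the cortex and oligodendrocyte scores or the cortex score alone as covariates, without the 4 mice of highest choroid plexus score, with the counts of each family added together, and within saline or amphetamine mice alone. With single mice left out it ranged from 0 to 1. It was 1 with RLE normalization, the stricter filter, DESeq2, the likelihood-ratio test and limma-voom. The log2 fold change of *Dlg3* stayed negative in all of these (-0.14 to -0.11 with single mice left out). Family as a random block in limma-voom, with a consensus correlation of 0.0264, kept the call. The count for amphetamine, 0, became 3 with DESeq2 and with the likelihood-ratio test, and ranged from 0 to 2 with single mice left out. Without mouse 411 *Dlgap1* (adjusted p = 0.0776) and *Homer2* (0.0990) were called in edgeR's quasi-likelihood test, and without mouse 415 *Dlgap1* was (0.0614). The interaction count was 0 in every fit run. The count of other postsynaptic genes called between the lines, 13, became 0 with either set of covariates and 2 without the 4 choroid plexus mice, and ranged from 7 to 16 with single mice left out. Over all genes 14.5% were called between the lines without scores and 2.66% with both scores, so calls fell there too. For the other of these fits the share over all genes is not given here. The labels give no replicate numbers shared between groups, so treatments were paired by parents only. With family as a fixed term (6 families, 13 mice) the amphetamine count was 0, as without it.

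Uncalled estimates changed sign as follows. For the line effect in log2 units, the cortex and oligodendrocyte scores gave 0.013 for *Dlg2*, 0.11 for *Shank1*, 0.035 for *Shank3*, 0.094 for *Homer1* and 0.11 for *Dlgap1*. The cortex score alone gave 0.088 for *Shank1*, 0.026 for *Shank3*, 0.030 for *Homer1* and 0.099 for *Dlgap1*. Without the 4 choroid plexus mice it was 0.024 for *Dlg2*, 0.053 for *Shank3* and 0.062 for *Homer1*. With family sums it was 0.0060 for *Dlgap1*. In saline mice it was 0.020 for *Dlg2* and 0.0089 for *Homer1* (0.0096 log2 CPM over mice for *Dlg2*), and in amphetamine mice -0.022 for *Dlg1* and 0.024 for *Dlgap1* (-0.029 and 0.010 log2 CPM over mice). For amphetamine, *Dlg1* was -0.020 with family fixed and -0.030 in High-Active mice. With the cortex score alone *Dlg3* was -0.0014, *Dlg4* -0.033 and *Homer1* -0.043. *Dlg4* was -0.021 with both scores, and *Shank3* -0.030 without the 4 mice. For the interaction, *Dlg4* was 0.00471 without a filter and *Shank1* was -0.016 with both scores and -0.045 with the cortex score alone. *Shank2* was -0.020 with the likelihood-ratio test, -0.0091 with both scores and -0.057 with the cortex score alone. With single mice left out, the amphetamine effect of *Dlg1* ranged from -0.0075 to 0.059, the line effect of *Shank3* from -0.060 to 0.014, and the interactions of *Dlg4* from -0.040 to 0.041, of *Shank2* from -0.057 to 0.080 and of *Shank3* from -0.12 to 0.026. The cause of these changes was not tested.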
